A study of Mus musculus with 43 samples.

Results

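The arcuate nucleus (ARC) and the paraventricular nucleus (PVN) of the same fed mice were compared gene by gene. The comparison held 10 of the 43 libraries of the series, 5 from ARC and 5 from PVN, of the mice labelled Fed-111, Fed-125, Fed-127, Fed-308 and Fed-313, chosen by their labels as fed and paired by the mouse number. An ARC column numbered 92 was left out, because it matched no labelled sample. All mice were adult males of the B6(Cg)-Snord116tm1.1Uta/J line, strain label C57/BL6, with the paternal copy of the Snord116 cluster deleted, and ate ad libitum. The comparison groups carried the same deletion: the fasted mice Fast-86, Fast-100, Fast-305 and Fast-311 had no food for 24 hours, and the dorsomedial (DMH) and ventromedial (VMH) hypothalamus came from the same fed mice. No mice without the deletion were analysed here, so the differences describe the 2 nuclei on this genetic background. The Snord116 genes themselves were not analysed here. Each nucleus was cut out of stained frozen sections with a laser, so a library held the RNA of every cell type inside the outline.

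ARC lies at the floor of the third ventricle, beside the median eminence. Its neurons sense circulating hormones such as leptin and ghrelin, and its Npy neurons drive feeding. PVN lies at the top of the ventricle, receives projections from ARC, and holds neuroendocrine neurons, among them the Avp neurons that release vasopressin from the posterior pituitary and the Crh neurons that command the pituitary-adrenal stress axis. ARC is rich in GABAergic neurons and PVN in glutamatergic ones.

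The 5′ flanking sequences of Npy and Avp, the genes that mark the 2 nuclei, are shown because these genes had the largest contrasts among the peptide genes. Each is the 250 bases before the gene's start in the RefSeq annotation of GRCm38.p6. That of Npy is chr6:49822460-49822709 on the plus strand, and that of Avp is chr2:130582589-130582838 on the minus strand. Capitals mark CATAAA, a variant of the TATA box of the core promoter, and CACGTG, the E-box bound by helix-loop-helix factors such as the clock proteins. Both motifs were chosen after the sequences were read and were searched on both strands.
Npy: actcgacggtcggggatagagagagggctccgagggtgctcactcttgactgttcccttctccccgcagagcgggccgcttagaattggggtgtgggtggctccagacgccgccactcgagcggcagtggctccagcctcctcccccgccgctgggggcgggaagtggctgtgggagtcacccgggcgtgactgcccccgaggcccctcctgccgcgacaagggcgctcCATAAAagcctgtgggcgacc
Avp: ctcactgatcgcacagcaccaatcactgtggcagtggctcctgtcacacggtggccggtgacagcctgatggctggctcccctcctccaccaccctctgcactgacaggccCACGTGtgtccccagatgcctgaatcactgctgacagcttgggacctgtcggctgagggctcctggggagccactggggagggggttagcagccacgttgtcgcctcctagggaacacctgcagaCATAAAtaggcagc
CATAAA began 21 bases before the RefSeq start of Npy and 14 bases before that of Avp. GENCODE M21, used for the gene coordinates below, starts Avp at 130582554, downstream of the RefSeq start, so distances depend on the annotation. CATAAA occurs in 11.1% of the 27025 mouse promoters in windows of the same length. CACGTG began 139 bases before the start of Avp, was not in the Npy window, and occurs in 6.05% of the promoters. The Npy window held 21 CG dinucleotides and the Avp window 7, against a median of 6 over all promoters. A match of letters does not show that a factor binds there.

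Of 9548 genes tested, 1023 (10.7%) differed between fed ARC and fed PVN at an adjusted p under 0.1 (limma with the mouse as a block, Benjamini-Hochberg adjustment). Of these, 461 (4.83%) were higher in ARC and 562 (5.89%) were higher in PVN. A log2 difference of at least 1 was passed by 279 genes higher in ARC (2.92%) and 288 higher in PVN (3.02%), and a log2 difference of at least 4 by 12 and 9 genes. Before adjustment 1852 genes had a p under 0.05. With the trend of variance with level left out of the fit, 545 genes were called, 247 higher in ARC and 298 higher in PVN. The median log2 difference of all genes was 0.008. Values scaled to a library total cannot show a shift shared by all genes. In 616 genes (6.45%) the 5 ARC and the 5 PVN values did not overlap. Differences are on the log2(CPM + 0.5) scale, ARC minus PVN, with their SE, and this scale understates the differences of genes with low values. CPM is a read count scaled to a common library total, and levels are mean ± SD over 5 libraries. In these bulk samples fewer cells of a type and less RNA per cell cannot be told apart.

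**Figure D1:**
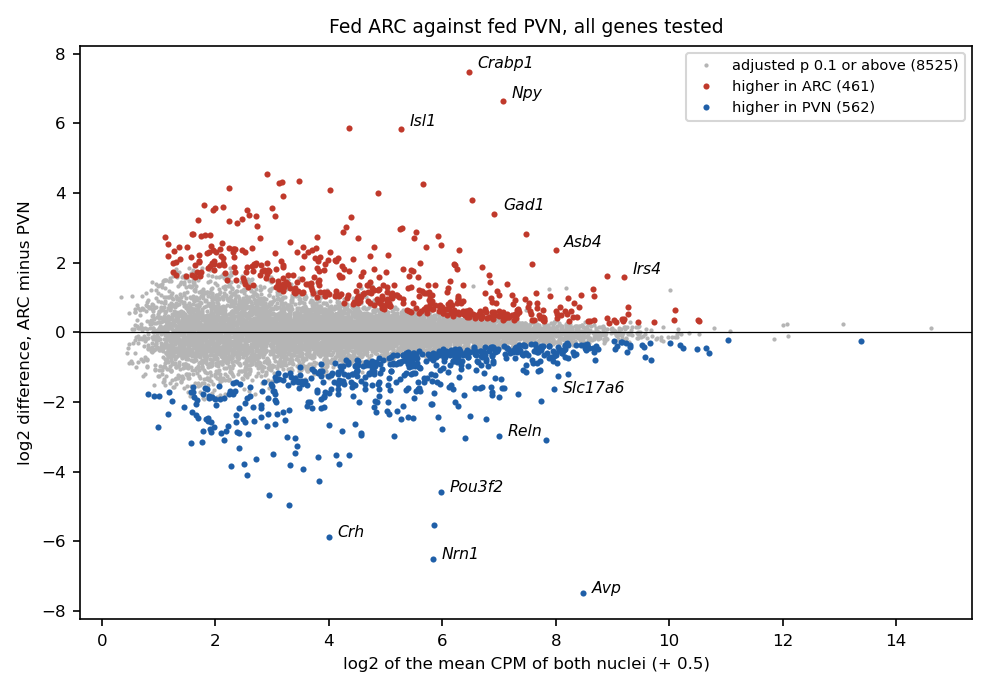
Log2 difference between fed ARC and fed PVN (vertical axis, ARC minus PVN) against the log2 of the mean CPM of both nuclei (horizontal axis) for the 9548 genes tested. Red points are the 461 genes higher in ARC and blue points the 562 higher in PVN, and differences reach 7.48 for Crabp1 and -7.48 for Avp.

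The depth read from the low values was 2.37 to 6.29 M reads in the ARC libraries and 3.68 to 7.26 M in the PVN libraries. Across genes, the correlation of log2 values was 0.881 to 0.939 between ARC libraries, 0.86 to 0.946 between PVN libraries, and 0.83 to 0.918 between an ARC and a PVN library. ARC and PVN of a mouse shared a batch of capture and library preparation, with Fed-111 in batch 1, Fed-125 and Fed-127 in batch 2 and Fed-308 and Fed-313 in batch 3, so each mouse's difference was a within-batch value. All 7 reference genes tested were past the threshold in neither direction, with a median log2 difference of -0.02.

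Npy (ENSMUSG00000029819, chr6:49822710-49829507), which encodes neuropeptide Y, the appetite-driving peptide of ARC, was at 370.5, 288, 269, 195 and 214 CPM in ARC of mice Fed-111, Fed-125, Fed-127, Fed-308 and Fed-313, in that order here and below. In PVN of the same mice it was at 1.63, 2.03, 2.14, 2.07 and 2.85 CPM. The lowest ARC value was far above the highest PVN value, and the log2 difference was 6.64 ± 0.26 (adjusted p = 2.65e-10). DMH held 2.14 ± 1.93 CPM and VMH 4.06 ± 4.44 CPM, both far below ARC. Avp (ENSMUSG00000037727, chr2:130580620-130582554), which encodes vasopressin, the antidiuretic hormone, was at 1249, 759, 565, 395 and 580.5 CPM in PVN and at 1.27, 1.69, 10.04, 5.599 and 2.22 CPM in ARC. No values overlapped, the log2 difference was -7.48 ± 0.40 (adjusted p = 5.05e-09), and the PVN of mouse Fed-111 held the highest level. The labels of both nuclei were therefore matched by their marker in each of the 10 libraries.

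**Figure D2:**
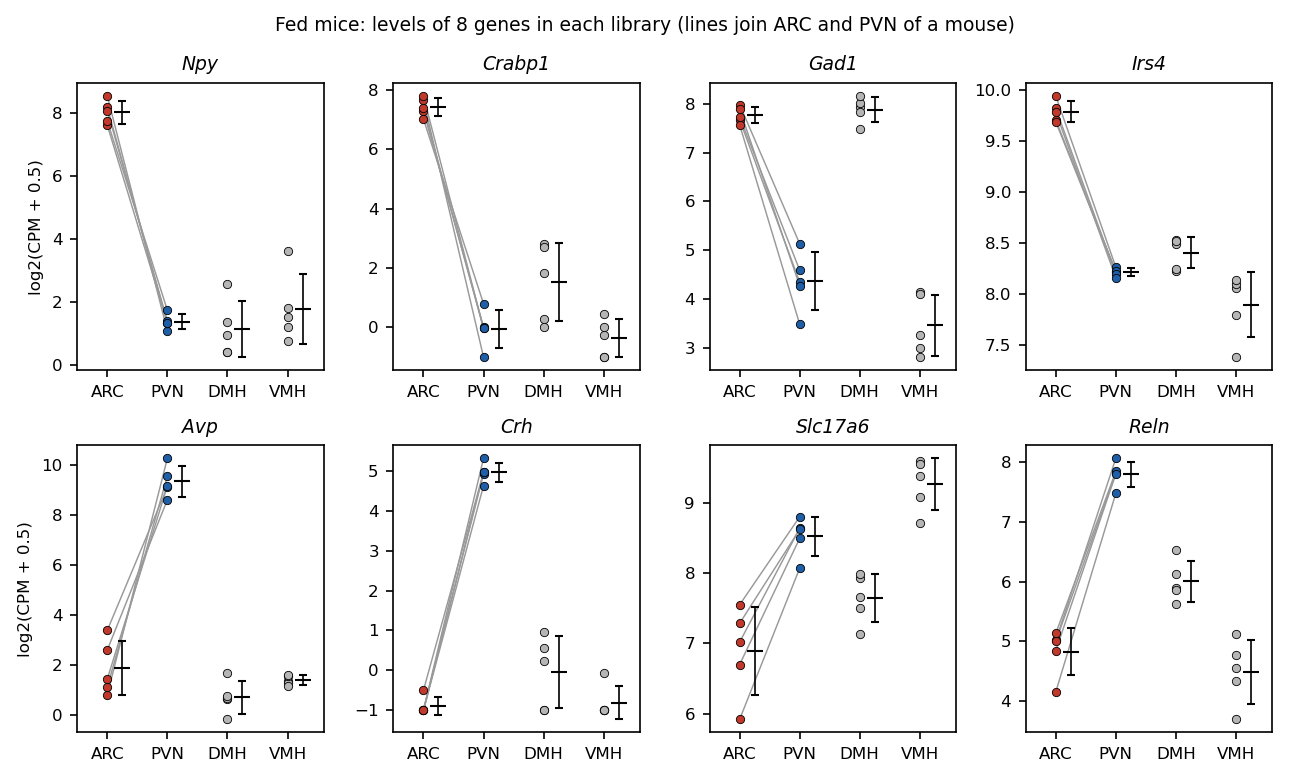
Levels of 8 genes in each fed library, as log2(CPM + 0.5), in ARC (red), PVN (blue), DMH and VMH (grey). Each point is a library, grey lines join ARC and PVN of a mouse, and the bars are mean ± SD. Npy, Crabp1, Gad1 and Irs4 were higher in ARC and Avp, Crh, Slc17a6 and Reln were higher in PVN in all 5 mice, while Gad1 was also high in DMH and Slc17a6 was highest in VMH.

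The 15 genes with the largest differences towards ARC ranged from 3.67 to 7.48 in log2 difference. Crabp1, a binding protein that holds retinoic acid in the cytoplasm, led them, at 201, 156, 221, 129 and 168 CPM in ARC against 0, 0.508, 0.476, 1.24 and 0.476 CPM in PVN. Its log2 difference was 7.48 ± 0.37 (adjusted p = 2.96e-09), and DMH, at 3.34 CPM, and VMH, at 0.344 CPM, were also low. Cyp26b1, an enzyme that degrades retinoic acid, was at 7.17, 12.2, 18.5, 16.2 and 15.4 CPM in ARC and at or below 0.238 CPM in every PVN library (4.56 ± 0.50, adjusted p = 1.47e-05). Both genes of retinoic acid handling were near 0 in all 5 PVN libraries. Isl1, a LIM-homeodomain factor of developing Pomc and other arcuate neurons, was at 91.1, 74.5, 67.3, 64.5 and 77.5 CPM in ARC and 0.815, 1.02, 0.238, 3.17 and 0.238 CPM in PVN (5.83 ± 0.41, adjusted p = 1.38e-07). Isl1 varied little between the ARC libraries. Bsx, a homeobox factor that controls Npy and Agrp, was at 43.04, 10.8, 12.5, 10.6 and 7.31 CPM in ARC and at or below 0.714 CPM in PVN (4.32 ± 0.54, adjusted p = 6.08e-05). The ARC of mouse Fed-111 was the highest for Bsx, and DMH was as high as ARC on average, at 16.9 ± 6.75 CPM against 16.9 ± 14.8 CPM.

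Receptors made up another group of these genes. Mc3r, the melanocortin receptor that ARC neurons use to read their own Pomc and Agrp signals, was at 35.9, 32.9, 34.7, 19.5 and 27.01 CPM in ARC and 3.804, 1.02, 1.43, 0.551 and 0.714 CPM in PVN (4.10 ± 0.41, adjusted p = 5.36e-06). Rxfp1, the relaxin receptor, was at 20.3, 15.4, 24.6, 11.4 and 30.8 CPM in ARC and 0, 0.254, 2.86, 0.964 and 0 CPM in PVN (4.33 ± 0.54, adjusted p = 5.86e-05). Gpr50, an orphan relative of the melatonin receptors that tanycytes express, was at 54.3 ± 12.01 CPM in ARC against 3.29 ± 2.12 CPM in PVN (4.0 ± 0.37, adjusted p = 2.90e-06), but DMH exceeded both at 189 ± 33.7 CPM. Fzd5, a Wnt receptor, was at 94.4 ± 25.7 CPM in ARC against 5.79 ± 4.14 CPM in PVN (4.27 ± 0.41, adjusted p = 4.18e-06), with DMH again near ARC at 62.1 ± 30.9 CPM. Of these 4 receptors, Rxfp1 and Mc3r had DMH means well below ARC, at 0.632 and 6.38 CPM. For Mc3r, however, the DMH of mouse Fed-125 held 20.2 CPM. VMH averaged 0.589 CPM for Rxfp1 but 17 ± 9.01 CPM for Mc3r, at 6.21 to 26.9 CPM, which overlapped ARC.

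The remaining genes of the ARC group were of mixed kinds. Cited1, a coregulator of transcription that binds no DNA itself, was at 255, 154, 191, 129 and 124 CPM in ARC and 8.42, 14.2, 11.9, 9.64 and 13.1 CPM in PVN (3.81 ± 0.23, adjusted p = 1.83e-08), and every ARC library was well above every PVN library. Nkx2-4, a homeobox gene of the ventral hypothalamus, was at 10.97, 10.7, 5.93, 8.09 and 6.83 CPM in ARC and listed at 0 in every PVN library (adjusted p = 7.30e-05). Sox14, a factor of ventral diencephalic neurons, was at 4.22, 6.098, 5.702, 8.29 and 5.56 CPM in ARC and likewise listed at 0 in every PVN library (adjusted p = 3.12e-04). Both were also present in DMH and VMH, where Nkx2-4 averaged 14.49 and 6.28 CPM and Sox14 5.16 and 9.56 CPM. Fndc3c1, a gene that marks tanycytes, varied widely in ARC, at 23.2, 15.2, 4.11, 35.9 and 2.86 CPM, and stayed at or below 0.275 CPM in PVN (4.30 ± 0.60, adjusted p = 2.10e-04). Nxf3, of the family of nuclear RNA export factors, was at 16.6 ± 10.7 CPM in ARC against 0.673 ± 1.11 CPM in PVN (3.92 ± 0.54, adjusted p = 1.83e-04). The gene 4933403O08Rik, named only by a clone, was at 39.8 ± 9.69 CPM in ARC against 0.204 ± 0.213 CPM in PVN (5.86 ± 0.45, adjusted p = 3.87e-07).

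The 15 genes with the largest differences towards PVN ranged from 3.63 to 7.48 in size. Behind Avp came Nrn1, which encodes neuritin, a surface protein that promotes neurite growth, at 68.7, 97.6, 138, 136 and 118 CPM in PVN and 0, 0.508, 1.37, 0.207 and 3.18 CPM in ARC (-6.51 ± 0.39, adjusted p = 1.83e-08). The lowest PVN value of Nrn1 exceeded the highest ARC value many times over. Crh, corticotropin-releasing hormone, was at 39.4, 30, 24.3, 30.7 and 30.9 CPM in PVN (adjusted p = 3.99e-07). In ARC it was listed at 0 in 4 libraries and at 0.207 CPM, the worth of 1 read, in that of mouse Fed-308. Ucn3, urocortin 3, a peptide of the same family, was at 22.3, 7.37, 25.5, 18.3 and 19.3 CPM in PVN and at most 0.228 CPM in ARC (-4.95 ± 0.51, adjusted p = 8.19e-06). The PVN of mouse Fed-125 held less Ucn3 than that of the other mice. Rxfp3, the receptor of relaxin-3, was at 27.4, 32.8, 33.6, 49.2 and 21.4 CPM in PVN and 4.22, 0.508, 3.65, 2.696 and 0.635 CPM in ARC (-3.77 ± 0.42, adjusted p = 1.88e-05), opposite in direction to Rxfp1.

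The PVN group also held genes of transcription and development. Pou3f2, also called Brn2, a POU factor needed for the Avp, oxytocin and Crh neurons of PVN, was at 79.9, 133, 132, 126 and 133 CPM in PVN and 3.798, 4.404, 3.19, 4.15 and 7.79 CPM in ARC (-4.59 ± 0.26, adjusted p = 6.34e-09). The PVN of mouse Fed-111 was the lowest of its group and still above every ARC library. Uncx, a paired-type homeobox gene, was at 18.2 ± 11.1 CPM in PVN against 0.778 ± 0.496 CPM in ARC (-3.80 ± 0.47, adjusted p = 5.86e-05). Neurod1, a helix-loop-helix factor of neuronal differentiation, was at 11.1, 17.3, 7.86, 9.501 and 11.7 CPM in PVN and 0.422, 0.169, 2.05, 0.207 and 0.159 CPM in ARC (-3.63 ± 0.54, adjusted p = 3.42e-04). Its relative Neurod2 was listed at 0 in all 5 ARC libraries and spread from 1.903 to 32.03 CPM in PVN (adjusted p = 9.28e-04). Prdm8, a zinc finger repressor, was at 63.3, 18.05, 26.9, 6.88 and 17.6 CPM in PVN and at most 3.02 CPM in ARC (-4.27 ± 0.53, adjusted p = 5.67e-05), with mouse Fed-111 highest in PVN. Mab21l2, a gene of eye and body wall development, averaged 10.7 CPM in PVN and 0.109 CPM in ARC (-4.08 ± 0.55, adjusted p = 1.47e-04), with DMH at 9.61 CPM.

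Fign, which encodes fidgetin, an enzyme that severs microtubules, was at 89.7, 126.8, 107, 126.5 and 106 CPM in PVN and 0, 4.07, 2.28, 6.84 and 1.27 CPM in ARC (-5.52 ± 0.40, adjusted p = 1.81e-07). DMH and VMH were in between, at 22.1 and 24.9 CPM. Islr2, a membrane protein of axon extension, averaged 20.6 CPM in PVN and 1.76 CPM in ARC (-3.91 ± 0.67, adjusted p = 0.00112), and Rufy4 averaged 8.51 and 0.129 CPM (-3.83 ± 0.52, adjusted p = 1.54e-04). A730046J19Rik, named only by a clone, was at 14.3 ± 3.66 CPM in PVN and above 0 in 1 ARC library (-4.66 ± 0.49, adjusted p = 1.12e-05). For all 30 of these genes the order of the nuclei was the same in each of the 5 mice, which the rule that chose them required. Just past that choice of 15 a side stood Prdm12 in ARC, at 3.61, and Serpinf1 in PVN, at -3.59.

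**Figure D3:**
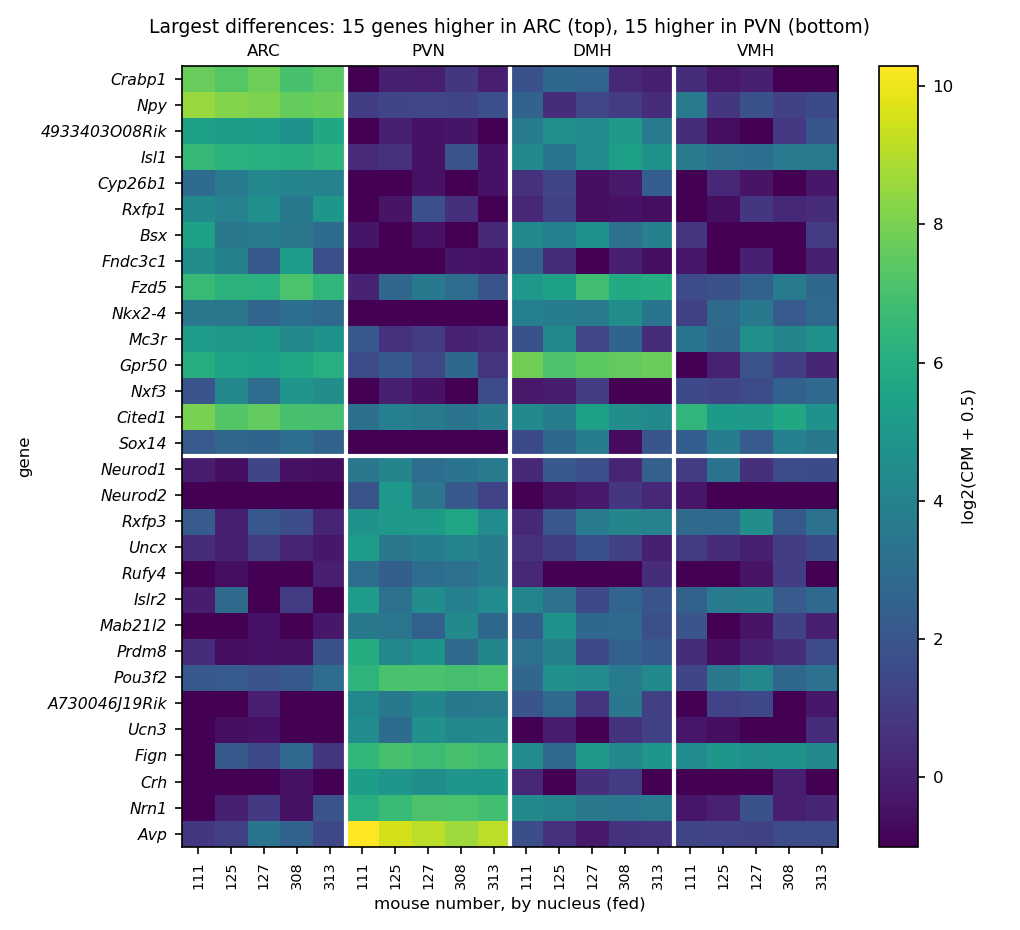
Level of the 15 genes most strongly higher in ARC (top) and the 15 most strongly higher in PVN (bottom) in each fed library, as log2(CPM + 0.5) by colour, with mice as columns inside each nucleus. The PVN genes are dark in ARC and the ARC genes are dark in PVN, while several ARC genes such as Gpr50, Fzd5 and Bsx are also bright in DMH.

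Of the 279 genes higher in ARC by at least 1 on the log2 scale, 194 had their highest mean of the 4 nuclei in ARC, 37 in DMH and 48 in VMH. Of the 288 genes higher in PVN by that size, 234 were highest in PVN, 21 in DMH and 33 in VMH. The DMH mean lay nearer the ARC mean than the PVN mean for 140 of the 279 and 143 of the 288 genes, and the VMH mean for 133 and 167. The peptide genes Hcrt, Npvf and Pmch of the neighbouring dorsomedial and lateral areas averaged 89.3, 72.4 and 285 CPM in DMH. They averaged 0.992, 0.358 and 0.954 CPM in ARC and 0.448, 0.194 and 1.08 CPM in PVN. Fezf1, a transcription factor gene of VMH, averaged 238 CPM there, 2.35 CPM in ARC and in PVN 5.27 CPM.

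Of 16 genes tested from a list of arcuate identity, 14 were higher in ARC and none was higher in PVN, against 4.83% and 5.89% of all genes. Its members were picked as arcuate genes with earlier results of these data known, so this share is not an independent test. The list's median log2 difference was 2.56. Beside those above, Asb4, a subunit of a ubiquitin ligase in arcuate neurons, was at 383, 456, 467, 394 and 435 CPM in ARC and 57.3, 86.2, 94.5, 102 and 80.9 CPM in PVN (2.36 ± 0.12, adjusted p = 5.05e-09). Prdm12 (3.61 ± 0.53, adjusted p = 3.30e-04) and Hmx2 (2.75 ± 0.56, adjusted p = 0.00547), factors that help set arcuate neuron fates, were present in every ARC library and near 0 in PVN. Of the distal-less homeobox genes of forebrain GABAergic neurons, Dlx1 was higher by 2.21 ± 0.31 (adjusted p = 1.81e-04), Dlx5 by 2.38 ± 0.51 (adjusted p = 0.00673) and Dlx6 by 1.74 ± 0.52 (adjusted p = 0.0516). DMH exceeded ARC for each of the 3. The Dlx6 call was lost without mouse Fed-125, Fed-127 or Fed-308, with adjusted p values up to 0.173. Th, the first enzyme of dopamine synthesis, did not pass the threshold, with a log2 difference of 0.55 ± 0.23 (adjusted p = 0.192). Th was at 80.2, 60.99, 45.8, 28.4 and 34.8 CPM in ARC and 53.3, 33.3, 28.1, 38.97 and 16.7 CPM in PVN, 2 ranges that overlapped, and without mouse Fed-308 its adjusted p was 0.0514. The list's summed level was 988.5 to 1337 CPM in ARC libraries and 124.7 to 178 CPM in PVN libraries.

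Of 11 genes tested from a list of paraventricular identity, 9 were higher in PVN and 1 was higher in ARC, against 5.89% and 4.83% of all genes. This list too was picked with earlier results of these data known, so its share is not an independent test. The list's median log2 difference was -2.98. Reln, which encodes reelin, a secreted guide of neuron positioning, was at 178, 268, 225, 229.8 and 223 CPM in PVN and 17.3, 31.8, 31.5, 34.6 and 28.3 CPM in ARC (-2.98 ± 0.15, adjusted p = 4.69e-09). Nos1, the neuronal nitric oxide synthase, was at 172 ± 34.2 CPM in PVN against 58.98 ± 17.2 CPM in ARC (-1.57 ± 0.16, adjusted p = 1.02e-05). Mc4r, the melanocortin receptor through which ARC signals limit food intake, was at 6.79, 7.88, 8.57, 12.4 and 17.6 CPM in PVN and 3.798, 0.169, 6.61, 0.622 and 0.794 CPM in ARC (-2.42 ± 0.58, adjusted p = 0.0157). The groups of Mc4r were separated by little, opposite in direction to the wide gap of Mc3r. Sim2 was at 28.8, 5.34, 3.33, 3.72 and 2.38 CPM in PVN and above 0 in 1 ARC library, at 5.08 CPM (-2.90 ± 0.69, adjusted p = 0.015). Brs3, a bombesin-type receptor, had a log2 difference of 0.35 ± 0.45 (adjusted p = 0.752), which was -0.12 without mouse Fed-127. The member higher in ARC was Irs4, an adaptor of the insulin receptor family, at 833, 980, 822, 901 and 878 CPM in ARC and 297, 306, 298, 292 and 285 CPM in PVN (1.57 ± 0.09, adjusted p = 5.81e-09). Its 5 PVN values lay close together. The calls of Mc4r and Sim2 were lost when the trend of variance with level was left out of the fit, at adjusted p = 0.115 for both, the highest of any alternative.

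Of 59 regional transcription factors tested, 13 were higher in ARC and 21 were higher in PVN, against 4.83% and 5.89% of all genes. A second list, picked by the homeobox, LIM, SOX, forkhead and POU families and sharing members with the first, had 18 of 83 genes higher in ARC and 15 higher in PVN. Zic1, Zic2, Zic4 and Zic5, zinc finger factors of the dorsal neural tube and medial forebrain, were higher in PVN. Zic1 was at 68.2, 41.4, 23.1, 18.6 and 34.02 CPM in PVN and 0.844, 4.57, 0.912, 5.39 and 3.34 CPM in ARC (-3.53 ± 0.47, adjusted p = 1.34e-04). Zic2 (-2.84, adjusted p = 0.00838), Zic4 (-2.83, adjusted p = 0.0036) and Zic5 (-2.87, adjusted p = 0.00216) lay within a narrow range of log2 difference. Zic1 and Zic4, and Zic2 and Zic5, are neighbouring pairs in the genome. Foxp2, a forkhead factor, was at 115, 115, 107, 109.9 and 137 CPM in PVN and 16.9, 28.3, 23.7, 54.95 and 30.5 CPM in ARC (-2.01 ± 0.21, adjusted p = 1.23e-05), with VMH at 9.75 CPM.

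The fast transmitters separated the nuclei. Gad1, the enzyme that makes GABA, was at 204, 189.7, 213, 253 and 237 CPM in ARC and 19.8, 10.7, 23.6, 34.6 and 18.8 CPM in PVN (3.41 ± 0.19, adjusted p = 5.81e-09). Slc32a1, the vesicular GABA transporter, was at 111.4, 99.9, 122, 87.5 and 104 CPM in ARC and 18.2, 16.5, 20.9, 14.3 and 8.09 CPM in PVN (2.77 ± 0.21, adjusted p = 3.99e-07). Slc17a6, the vesicular glutamate transporter VGLUT2, went the other way, at 59.9, 187, 103, 129 and 156 CPM in ARC and 269, 448, 362, 399.9 and 395 CPM in PVN (-1.64 ± 0.13, adjusted p = 6.57e-07). No ARC library overlapped with a PVN library for any of these 3 genes, and DMH was near ARC for Gad1 (238 CPM) while VMH was near PVN (11.4 CPM). Drd2, a dopamine receptor that is also the autoreceptor of dopamine neurons, was at 12.2, 13.9, 22.1, 19.3 and 12.4 CPM in ARC and 18.5, 2.29, 5.47, 10.3 and 1.903 CPM in PVN (1.40 ± 0.45, adjusted p = 0.0722). The values of Drd2 overlapped, and its call was lost without mouse Fed-125, Fed-127, Fed-308 or Fed-313, without the pairing by mouse and without the variance trend, with adjusted p up to 0.232 over the alternatives. Thy1, a surface protein of projection neurons, was higher in PVN (-1.14 ± 0.15, adjusted p = 8.23e-05), and it was highest in VMH at 744 CPM. It was the 1 gene called of 5 general neuronal genes tested (20%), against 10.7% of all genes.

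Of 13 neuropeptide genes tested, 2 were higher in ARC, Npy and Pnoc, and 6 were higher in PVN, namely Avp, Crh, Ucn3, Bdnf, Penk and Tac1, against 4.83% and 5.89% of all genes. Pnoc, the precursor of the opioid-related peptide nociceptin, was at 18.6, 11.5, 11.9, 13.7 and 10.01 CPM in ARC and 7.88, 0.254, 5.71, 4.82 and 2.62 CPM in PVN (1.87 ± 0.47, adjusted p = 0.0221). Bdnf, the neurotrophin counted with this list, was at 43.5, 18.05, 23.8, 22.7 and 42.3 CPM in PVN and 5.49, 0, 0.456, 10.6 and 2.701 CPM in ARC (-3.51 ± 0.52, adjusted p = 3.08e-04), and VMH, at 34.5 CPM, was as high as PVN. Penk, the precursor of enkephalins, was at 175, 134, 153, 182 and 129 CPM in PVN and 63.3, 30.8, 60.2, 63.5 and 48.8 CPM in ARC (-1.56 ± 0.15, adjusted p = 5.42e-06). Tac1, the precursor of substance P, averaged 55.7 CPM in PVN and 28.5 CPM in ARC (-0.98 ± 0.21, adjusted p = 0.00724), with overlapping libraries. The other 5 genes tested did not pass the threshold, and the peptide genes Agrp, Pomc, Oxt and Trh were not analysed here.

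Of 40 receptors for peptides and hormones, 11 were higher in ARC and 8 were higher in PVN, 47.5% called against 10.7% of all genes. Ghsr, the ghrelin receptor, was at 11.8, 25.9, 32.2, 43.96 and 27.8 CPM in ARC and 12.8, 8.64, 2.86, 5.37 and 2.85 CPM in PVN (2.14 ± 0.45, adjusted p = 0.00617), overlapping only through mouse Fed-111. Npy1r and Npy5r, the receptors of neuropeptide Y tied to feeding, were both higher in ARC. Npy1r was at 103 ± 25.3 CPM in ARC against 36.5 ± 7.35 CPM in PVN (1.47 ± 0.20, adjusted p = 1.66e-04), and Npy5r at 21 ± 8.77 and 5.67 ± 2.601 CPM (1.85 ± 0.44, adjusted p = 0.0145). Cckar, a receptor of the gut peptide cholecystokinin, was at 68.7, 61.3, 47.1, 72.6 and 56.4 CPM in PVN and 1.69, 5.42, 15.1, 7.88 and 15.4 CPM in ARC (-2.99 ± 0.39, adjusted p = 1.04e-04). Agtr1a, the angiotensin receptor through which thirst and vasopressin release are driven, was at 23.6, 18.3, 16.9, 32.2 and 9.99 CPM in PVN and 2.11, 0.847, 6.39, 6.43 and 8.26 CPM in ARC (-2.17 ± 0.48, adjusted p = 0.00844). Aplnr, the receptor of apelin, was also higher in PVN, at 6.12 ± 3.33 CPM against 0.436 ± 0.54 CPM (-2.85 ± 0.55, adjusted p = 0.00339). The calls of Ghsr, Npy5r and Pnoc were lost when the variance trend was left out, at adjusted p = 0.103, 0.114 and 0.101, the highest over the alternatives.

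Of 15 genes of leptin and insulin signalling, 3 were higher in ARC and 1 was higher in PVN (4.83% and 5.89% of all genes), with Irs4 among the former. Lepr, the leptin receptor, was at 20.7, 14.2, 31.9, 22.2 and 30.3 CPM in ARC and 4.89, 6.86, 4.28, 4.68 and 7.85 CPM in PVN (1.95 ± 0.35, adjusted p = 0.0017), and DMH and VMH held 22.1 and 18.3 CPM. Lepr was thus lower in PVN than in the other nuclei by its means. The forkhead factors downstream of insulin went in opposite directions, Foxo1 by 0.96 ± 0.17 (adjusted p = 0.00145) and Foxo3 by -0.71 ± 0.16 (adjusted p = 0.011). Foxo1 was at 83.1, 90.97, 98.3, 102 and 133 CPM in ARC and 30.4, 62.5, 46.2, 60.7 and 66.9 CPM in PVN, with no overlap. The call of Foxo3 was lost without the variance trend (adjusted p = 0.107, the highest over the alternatives).

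Of 12 nuclear receptors, 2 were higher in ARC and 6 were higher in PVN, against 4.83% and 5.89% of all genes, and in fasted mice 1 and 2 were called. Pgr, the progesterone receptor, was at 50.2, 54.4, 65.2, 71.5 and 82.1 CPM in ARC and 8.695, 8.39, 24.3, 36.4 and 27.8 CPM in PVN (1.80 ± 0.26, adjusted p = 2.39e-04). Rara, a retinoic acid receptor, was at 32.5, 25.2, 20.3, 23.02 and 36.5 CPM in ARC and 14.7, 7.63, 6.43, 6.88 and 9.28 CPM in PVN (1.59 ± 0.29, adjusted p = 0.002), the same direction as Crabp1 and Cyp26b1, but in fasted mice it was not called (0.49 ± 0.68, adjusted p = 0.788). Nr2f1, the orphan receptor COUP-TFI, was at 20.4, 18.05, 15.9, 15.01 and 20.7 CPM in PVN and 1.69, 1.02, 0.684, 4.35 and 2.38 CPM in ARC (-3.04 ± 0.44, adjusted p = 2.72e-04). Its relative Nr2f2 was higher in PVN than in ARC (-1.63 ± 0.36, adjusted p = 0.00892), and VMH, at 117 CPM, exceeded PVN, at 23.02 CPM. Rora, a receptor that takes part in the molecular clock, was higher in PVN by a smaller margin (-0.81 ± 0.17, adjusted p = 0.00648, and 0.104 without the variance trend), and it was not called in fasted mice (-0.21 ± 0.19, adjusted p = 0.661).

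Of 52 subunits of transmitter receptors, 11 were higher in ARC and 9 were higher in PVN, 38.5% called against 10.7% of all genes. Gabre, the epsilon subunit of the GABA-A receptor, was at 290.3, 339, 243, 331 and 344 CPM in ARC and 62.8, 47.8, 51.9, 24.4 and 40.4 CPM in PVN (2.81 ± 0.19, adjusted p = 8.79e-08). Gabra5, the alpha 5 subunit of the same receptor, was at 111.4, 93.7, 104, 106 and 172 CPM in ARC and 27.2, 26.9, 24.04, 32.4 and 38.1 CPM in PVN (1.95 ± 0.17, adjusted p = 1.16e-06), with VMH higher still at 292 CPM. Grin3a, a glutamate receptor subunit of NMDA type, was at 174, 207, 160, 181 and 185 CPM in PVN and 67.9, 41.3, 45.8, 51.8 and 55.8 CPM in ARC (-1.79 ± 0.15, adjusted p = 1.16e-06). The histamine receptors differed in direction, Hrh3, the presynaptic one, being higher in ARC (1.36 ± 0.18, adjusted p = 1.34e-04) and Hrh2 higher in PVN (-3.33 ± 0.53, adjusted p = 5.78e-04). Chrm2, a muscarinic acetylcholine receptor, was at 43.7 ± 7.83 CPM in PVN against 11.6 ± 5.52 CPM in ARC (-1.96 ± 0.29, adjusted p = 2.90e-04).

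Of 98 genes picked by the symbols of ion channel families, 12 were higher in ARC and 14 were higher in PVN, which is 26.5% called against 10.7% of all genes. The symbols also took in Kctd16, an auxiliary protein of GABA-B receptors and a call for ARC, and the antisense gene Kcnmb4os2, a call for PVN. Kcnh1, a voltage-gated potassium channel of the ether-a-go-go type, was at 171, 168, 126, 129 and 133 CPM in PVN and 24.1, 2.88, 19.2, 31.5 and 33.4 CPM in ARC (-3.03 ± 0.38, adjusted p = 6.32e-05), and the ARC of mouse Fed-125 was lowest. Kcnmb4, a subunit of large-conductance calcium-activated potassium channels, was at 30.98, 25.2, 26.7, 26.2 and 24.5 CPM in PVN and 5.06, 1.02, 3.65, 6.43 and 5.72 CPM in ARC (-2.65 ± 0.38, adjusted p = 2.72e-04), where reads of an antisense gene that overlaps it could not be told apart. Kcnj12, an inward rectifier, averaged 22.3 CPM in PVN and 7.03 CPM in ARC (-1.85 ± 0.40, adjusted p = 0.00728). Scn7a, a sodium-level sensing channel of glia and some neurons, was at 100, 44.9, 46.1, 137 and 54.8 CPM in ARC and 2.45, 8.897, 18.3, 20.4 and 12.1 CPM in PVN (2.71 ± 0.39, adjusted p = 2.72e-04).

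Of 87 genes in families of axon guidance and cell adhesion, 9 were higher in ARC and 26 were higher in PVN, 40.2% called against 10.7% of all genes. Cntn4, a contactin, was at 77.4, 91.8, 109, 96.1 and 133 CPM in PVN and 19.8, 10.8, 26.2, 22.8 and 15.7 CPM in ARC (-2.42 ± 0.22, adjusted p = 2.43e-06). Sema3c, a secreted semaphorin, was at 35.7 ± 7.24 CPM in PVN against 7.58 ± 6.78 CPM in ARC (-2.64 ± 0.42, adjusted p = 6.62e-04), and Cntnap3 at 18.6 ± 2.08 and 2.06 ± 1.69 CPM (-3.26 ± 0.49, adjusted p = 3.65e-04). Slit2, a secreted repellent of axons, was at 193, 180.5, 185, 212 and 221 CPM in PVN and 52.3, 45.4, 38.8, 69.9 and 74.8 CPM in ARC (-1.85 ± 0.14, adjusted p = 4.33e-07). In the other direction, Unc5d, a netrin receptor, was at 339.7, 479.9, 401, 377 and 368 CPM in ARC and 163, 223, 167, 218 and 226 CPM in PVN (0.98 ± 0.11, adjusted p = 1.90e-05). Nrxn3, a presynaptic adhesion protein, was at 534, 488, 428, 481 and 439 CPM in ARC and 247, 225, 237, 201 and 216 CPM in PVN (1.07 ± 0.10, adjusted p = 2.49e-06). The protocadherin Pcdh20 was higher in ARC (1.82 ± 0.35, adjusted p = 0.00296, and 0.109 without the variance trend).

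Genes of the secretory pathway were called in both directions. Of 14 genes of endoplasmic reticulum folding and entry, 6 were higher in PVN and none was higher in ARC, and the median log2 difference was -0.31, while in fasted mice 1 of the 14 was called, higher in PVN. Over all genes tested, 5.89% were higher in PVN. Creb3l2, a membrane-bound factor that raises secretory capacity, was at 83.96, 97.1, 80.7, 95.6 and 54.96 CPM in PVN and 44.3, 59.5, 39, 54.7 and 35.7 CPM in ARC (-0.81 ± 0.16, adjusted p = 0.00437). Spcs3, of the signal peptidase, was at 136 ± 20.2 CPM in PVN against 81.8 ± 21.6 CPM in ARC (-0.77 ± 0.16, adjusted p = 0.00673), and Rpn1, of the glycosylation complex, at 212 ± 31.9 and 140.2 ± 21.5 CPM (-0.59 ± 0.13, adjusted p = 0.00841). Of 14 genes of prohormone processing and dense-core vesicles, 2 were higher in ARC and 4 in PVN (4.83% and 5.89% of all genes). Cpe, the carboxypeptidase that trims peptide hormones, was at 1122, 2420, 1923, 2572 and 2023 CPM in PVN and 873, 1198, 1553, 1388 and 1535 CPM in ARC (-0.59 ± 0.10, adjusted p = 9.21e-04). Cpe was higher in PVN within each mouse although the ranges overlapped. Scg2, a secretogranin of vesicle cores, differed by -0.46 ± 0.09 (adjusted p = 0.0024). Sv2c, a synaptic vesicle protein, went the other way, at 137, 134, 130, 114 and 131 CPM in ARC and 14.7, 24.7, 36.7, 33.6 and 20.7 CPM in PVN (2.36 ± 0.21, adjusted p = 1.80e-06). Without the variance trend Spcs3, Rpn1, Cpe and Scg2 were no longer called, at adjusted p = 0.137, 0.172, 0.185 and 0.254, the highest over the alternatives.

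Of 60 cytosolic ribosomal protein genes, 9 were higher in ARC (15%, against 4.83% of all genes) and none was higher in PVN, with a median log2 difference of 0.27. In fasted mice 1 of the 60 was called, higher in ARC. Rpl7a was at 149, 138, 131, 91.7 and 104 CPM in ARC and 82.6, 70.2, 83.1, 87.6 and 74.9 CPM in PVN (0.60 ± 0.15, adjusted p = 0.0245, and 0.191 without the variance trend). Ribosomal protein genes have near-identical pseudogene copies, so the split of their reads is uncertain. Of 36 subunits of the respiratory chain, Cox6a2, a muscle-type subunit of cytochrome oxidase, was higher in ARC, at 7.595, 2.71, 7.75, 3.73 and 5.08 CPM against at most 0.254 CPM in PVN (3.23 ± 0.56, adjusted p = 0.00126). Sdhd, a subunit of complex II, was higher in PVN (-0.58 ± 0.14, adjusted p = 0.0192, and 0.122 without the variance trend), and the other 34 did not pass the threshold. The 2 calls were 5.56% of the list, below the 10.7% of all genes.

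Of 22 imprinted genes, which are expressed from 1 parental copy, 4 were higher in ARC and 6 were higher in PVN, against 4.83% and 5.89% of all genes. Peg10, a gene derived from a retrotransposon, was at 1347, 1609, 1365, 1231 and 1148 CPM in ARC and 1161, 924, 869.8, 805 and 587 CPM in PVN (0.65 ± 0.09, adjusted p = 2.87e-04). Ppp1r9a, a regulator of protein phosphatase at dendritic spines, was at 733 ± 61.8 CPM in ARC against 504 ± 13.6 CPM in PVN (0.54 ± 0.08, adjusted p = 5.30e-04). Mest was at 267, 356, 228, 216 and 264 CPM in PVN and 152, 134, 130.2, 144 and 150.1 CPM in ARC (-0.88 ± 0.13, adjusted p = 2.80e-04), and Inpp5f, a phosphoinositide phosphatase, at 357 ± 26.7 and 219 ± 24.3 CPM (-0.71 ± 0.10, adjusted p = 2.47e-04). Ndn, which encodes necdin and lies in the imprinted region that also holds Snord116, had a log2 difference of 0.08 ± 0.10 (adjusted p = 0.734), with 845 ± 151 CPM in ARC against 797 ± 139 CPM in PVN, and -0.02 without mouse Fed-127. Magel2, of the same region, was higher in ARC, at 108, 63.4, 52.2, 69.5 and 83.4 CPM against 91.8, 40.2, 38.3, 51.4 and 40.2 CPM (0.56 ± 0.17, adjusted p = 0.0635), and in fasted mice (1.09 ± 0.20, adjusted p = 0.00525). Its fed call was lost under 6 of 16 alternatives, among them leaving out mouse Fed-125, Fed-127, Fed-308 or Fed-313, with adjusted p up to 0.264. The calls of Peg10 and Ppp1r9a were lost without the variance trend, at adjusted p = 0.134 and 0.147.

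Of 7 immediate early genes, which neurons switch on within minutes of activity, 2 were higher in PVN, against 5.89% of all genes, and none in ARC. Fosl2, a Fos-family factor, was at 136, 156, 109.7, 142 and 104 CPM in PVN and 44.3, 35.9, 28.7, 33.6 and 43.2 CPM in ARC (-1.79 ± 0.17, adjusted p = 3.92e-06), a complete separation. Egr1 was at 499, 205, 150.2, 269.6 and 105 CPM in PVN and 87.3, 19.7, 40.1, 139 and 92.3 CPM in ARC (-1.78 ± 0.31, adjusted p = 0.00129, and 0.119 without the variance trend), and the groups overlapped although PVN was higher within each mouse.

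**Figure D4:**
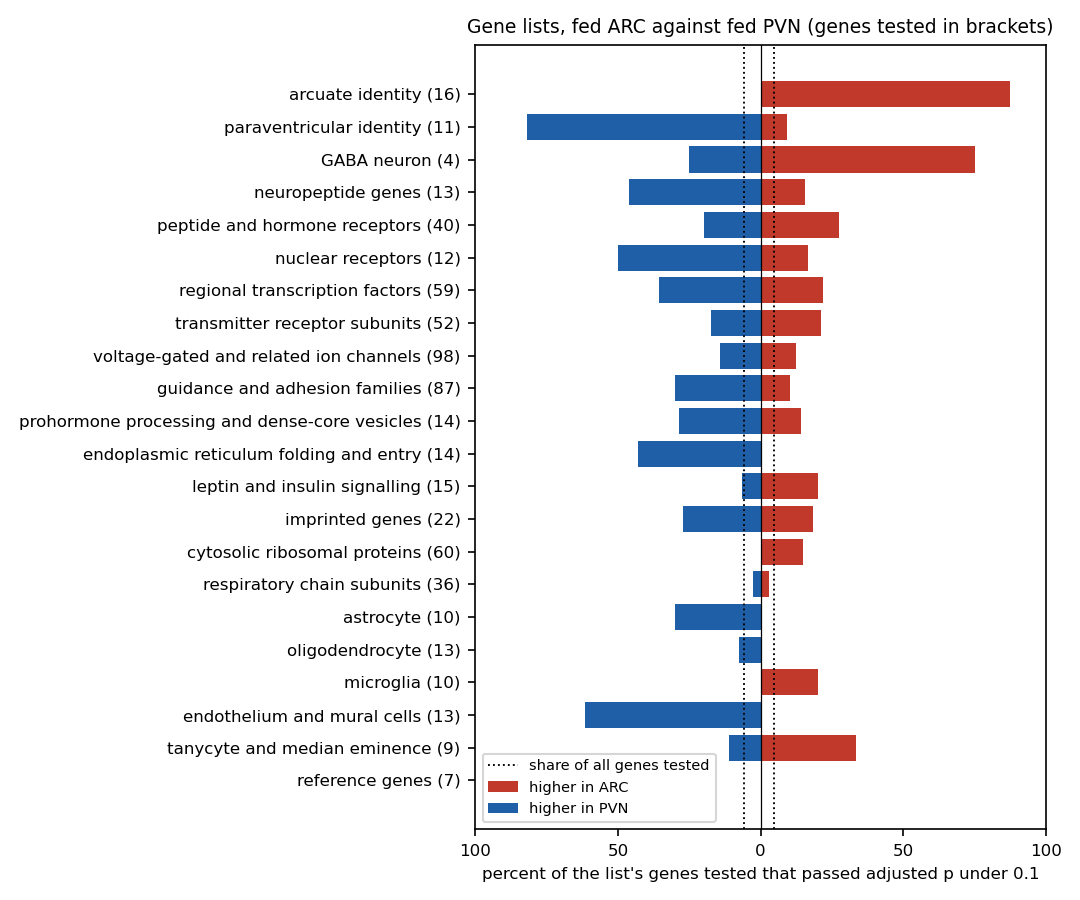
Percent of the genes tested in each list that were higher in ARC (red, to the right) or in PVN (blue, to the left) at an adjusted p under 0.1, with the number of genes tested in brackets. Dotted lines give the shares of all genes, 4.83% and 5.89%, and the lists of nuclear identity and of endothelium and mural cells stand far outside them while the reference genes show none. The lists were chosen with earlier results of these data known, and the identity lists hold genes picked to mark each nucleus.

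Marker lists of other cell types inside the outlines were read in the same way. Of 13 genes tested for endothelium and mural cells, 8 were higher in PVN (61.5%, against 5.89% of all genes) and none in ARC, with a median log2 difference of -1.22 and a summed level of 359 to 442 CPM in PVN libraries against 149 to 209 CPM in ARC libraries. PVN is known for its dense bed of capillaries, but vessel density was not measured here and its part in this difference was not tested. Slco1a4, a transporter of the blood-brain barrier, was at 53.5, 111.3, 62.4, 57.8 and 68.8 CPM in PVN and 21.1, 8.98, 15.7, 19.9 and 31.1 CPM in ARC (-1.90 ± 0.30, adjusted p = 5.26e-04), and Abcc9, a channel subunit of pericytes, at 33.8 ± 8.33 and 12.8 ± 4.89 CPM (-1.40 ± 0.30, adjusted p = 0.00676). Of 10 astrocyte genes 3 were higher in PVN, against the same 5.89%, among them Agt, angiotensinogen, at 84.8, 50.3, 71.4, 93.6 and 81.6 CPM in PVN and 44.7, 22.02, 40.4, 20.7 and 43.2 CPM in ARC (-1.19 ± 0.21, adjusted p = 0.00164). The summed astrocyte level was 769 to 883 CPM in PVN and 592 to 688 CPM in ARC. Of 10 microglial genes 2 were higher in ARC, Ctss at 72.2, 81.5, 87.4, 68.2 and 44.5 CPM against 25.5, 41.9, 50.5, 34.01 and 32.1 CPM (0.94 ± 0.19, adjusted p = 0.00503) and C1qc at 34.5 ± 21.9 CPM against 12.1 ± 10.6 CPM (1.63 ± 0.33, adjusted p = 0.00453). Over all genes 4.83% were higher in ARC, and in fasted mice none of the 10 was called, with log2 differences of -0.09 for Ctss (adjusted p = 0.918) and -0.26 for C1qc (adjusted p = 0.803). The summed microglial level, 189 to 274 CPM in ARC and 148 to 248 CPM in PVN, overlapped. The oligodendrocyte list, with 1 of 13 genes higher in PVN (7.69%, against 5.89% of all genes), also overlapped, at 364 to 1010 CPM in ARC and 486 to 777 CPM in PVN.

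Of 9 genes of tanycytes and the median eminence, 3 were higher in ARC, namely Fndc3c1, Gpr50 and Scn7a, and 1, Mest, was higher in PVN, 44.4% called against 10.7% of all genes, while the list's sum was 316 to 499.6 CPM in ARC and 381 to 517 CPM in PVN. Lum, an extracellular matrix gene of meninges, was at 5.91, 17.6, 5.93, 15.6 and 3.34 CPM in ARC and at most 0.714 CPM in PVN (3.26 ± 0.56, adjusted p = 0.00118). Igf2, an imprinted growth factor gene of the same list, went the other way, at 45.7, 32.03, 19.04, 33.2 and 13.3 CPM in PVN and 1.27, 15.9, 6.39, 29.9 and 12.6 CPM in ARC (-1.49 ± 0.51, adjusted p = 0.0982). Its groups overlapped although PVN was higher within each mouse. Its call was lost under 8 of 16 alternatives, among them leaving out mouse Fed-111 (-0.68), Fed-125 or Fed-127, with adjusted p up to 0.353. The summed level of the 5 meningeal genes overlapped, at 16.6 to 75.1 CPM in ARC and 22.4 to 53.8 CPM in PVN. The 2 ependymal genes tested did not pass the threshold. Cyp2f2, the gene present of a pars tuberalis list, was too low to be tested, with a median of 0.477 CPM and a highest value of 17.8 CPM, in mouse Fed-308, over the ARC libraries, and at most 0.238 CPM in PVN. The part of these cell types in the neuronal differences above was not tested.

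The contrast was then read in the fasted mice Fast-86, Fast-100, Fast-305 and Fast-311, which share no library with the fed comparison. Of the same 9548 genes, 753 (7.89%) were called in fasted mice, 322 (3.37%) higher in ARC and 431 (4.51%) higher in PVN. This count was 350 without mouse Fast-100, 421 without mouse Fast-305 and 443 without mouse Fast-311. Of the 461 genes higher in ARC in fed mice, 423 (91.8%) had the same sign in fasted mice and 198 were called the same way, where 50.9% of all genes had a positive difference. Of the 562 genes higher in PVN, 533 (94.8%) had the same sign and 285 were called. The 483 genes called in both states were 47.2% of the fed calls and 64.1% of the fasted calls. All 30 of the genes with the largest fed differences were called the same way in fasted mice. By list, the fasted calls for ARC and PVN were 13 and 0 in arcuate identity, 2 and 8 in paraventricular identity, 11 and 17 in regional transcription factors and 11 and 4 in receptors for peptides and hormones. They were 8 and 6 in subunits of transmitter receptors, 5 and 10 in ion channels, 7 and 21 in guidance and adhesion, 4 and 3 in imprinted genes and 0 and 9 in endothelium and mural cells. A single gene, listed by its identifier ENSMUSG00000036279, was called in opposite directions. Npy was at 1226, 636, 326 and 732 CPM in ARC and 2.27, 2.39, 9.93 and 1.82 CPM in PVN of the fasted mice (log2 difference 7.46 ± 0.47, adjusted p = 1.68e-06). Avp was at 1475, 1029, 654 and 568 CPM in fasted PVN and 5.17, 1.43, 1.69 and 6.44 CPM in fasted ARC (-7.92 ± 0.34, adjusted p = 8.23e-08).

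**Figure D5:**
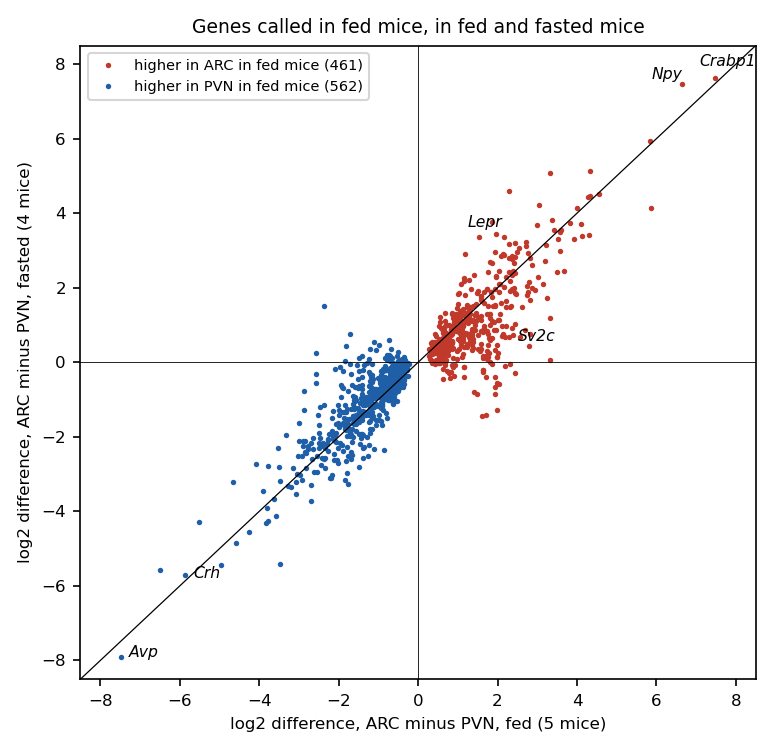
Log2 difference between ARC and PVN in fed mice (horizontal axis, 5 mice) and fasted mice (vertical axis, 4 mice) for the genes called in fed mice, red for the 461 higher in ARC and blue for the 562 higher in PVN. The diagonal marks equal differences, and 91.8% of the red and 94.8% of the blue points keep their sign.

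Whether the contrast between the nuclei itself changed with fasting was tested as the difference of the 2 contrasts. No gene passed the threshold in limma, with 558 genes at an unadjusted p under 0.05 and a smallest adjusted p of 0.469. That value belonged to Sv2c, whose contrast was 2.36 ± 0.21 in fed and 0.92 ± 0.17 in fasted mice, and to Stra6, the cell-surface receptor for the retinol carrier. Stra6 was at 7.17, 7.28, 2.51, 1.87 and 1.27 CPM in fed ARC and 0.815, 0.254, 3.57, 0 and 0.714 CPM in fed PVN, and at 0, 0.179, 0 and 0 CPM in fasted ARC and 15.3, 3.98, 0.763 and 4.84 CPM in fasted PVN. In fed mice alone Stra6 did not pass the threshold (1.65 ± 0.62, adjusted p = 0.137, and 0.0886 without mouse Fed-127). Lepr had a contrast of 1.95 ± 0.35 in fed and 3.43 ± 0.37 in fasted mice, with 91.5, 75.5, 32.2 and 81.7 CPM in fasted ARC, and the difference between the contrasts was 1.48 ± 0.51 (adjusted p = 0.845).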

How the data were processed

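RNA from laser-captured hypothalamic nuclei was amplified (Ovation RNA-Seq V2) and sequenced by the authors as single-end reads. The notes of the authors name CASAVA 1.7, TopHat2 2.0.11, Cufflinks 2.2.1, edgeR, limma and GRCm38, and outlier libraries were removed before deposit, which can lower the spread between replicates. The program that assigned reads to genes and its use of strand are not given in the sources used here, so overlapping and antisense genes may share reads. The authors deposited CPM, and the table used here held 10127 genes. Genes with identifiers between ENSMUSG00000000861 and ENSMUSG00000028747 were not analysed here. In all, 2 columns of the table, the ARC column 92 among them, fitted no sample label and stayed unused, and the samples labelled PVN 85 and PVN 92 fitted no column. Of low values, 97.4% to 98.3% were whole multiples of 1 read (tolerance 0.01 of a read, values up to 20 reads), which gave the depth, but fractional values remained and no count test was run. Intervals from these reads would cover counting error only.

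Genes with CPM of at least 1 in at least 5 of the 10 libraries were compared on log2(CPM + 0.5) with limma 3.58.1 in R 4.3.3 (nucleus plus mouse, trended eBayes, 2-sided, Benjamini-Hochberg, threshold 0.1). Nuclei of a number are of 1 mouse, so they were paired by the animal, and their residual correlation was 0.012 to 0.221. That with another mouse was higher for Fed-127 (0.049 against 0.012) and Fed-313 (0.065 against 0.048). In simulated data 45% of genes changed by 1 and 99% of those changed by 2 on the log2 scale were recovered in the fed comparison of 9548 genes. Coordinates and types came from GENCODE M21 and promoters from RefSeq (GRCm38.p6).

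Named genes were Npy and Avp, the 15 largest differences per direction (adjusted p under 0.1, mean in the higher nucleus of 5 CPM or more, all 5 mice alike, no overlap), up to 4 called genes per list and direction, members of the identity lists, and the smallest adjusted p of the fasting test. Penk, Tac1, Npy1r, Npy5r, Agtr1a, Zic2, Zic4, Slit2, Unc5d, Ndn, Fezf1, Hcrt, Npvf, Pmch, Cyp2f2, Serpinf1 and the gene called in opposite directions were chosen after their values were seen. Members and lists were chosen with earlier results of these data known. Alternatives were other pseudocounts, filters, scalings, blocks, covariates, weights and variance models, and each mouse left out.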

Additional observations from a re-analysis of the deposited data

Results flagged for a closer look

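Among 229 sets of 5 libraries, 1 set for each nucleus and gene described above, 16 held a library that stood apart from the other 4 by Dixon's test, where chance gives about 11.4. For Crh, A730046J19Rik, Hmx2 and Sim2 the other 4 values were 0, so any read would stand apart. The chance figure does not hold for such sets. Values are CPM.

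In PVN, Ucn3 was at 7.37 in mouse Fed-125 against 18.3 to 25.5 in the others, Pou3f2 at 79.9 in mouse Fed-111 against 126 to 133, Foxp2 at 137 in mouse Fed-313 against 107 to 115, and Inpp5f at 310.6 in mouse Fed-111 against 359.7 to 375. Hmx2 was at 0.238 in the PVN of mouse Fed-127 and listed at 0 in the others. In ARC, Spcs3 was at 46.0 in mouse Fed-111 against 82.1 to 99.7, and Kcnh1 at 2.88 in mouse Fed-125 against 19.2 to 33.4. Rpn1 was at 178 in the ARC of mouse Fed-127 against 126 to 138, Abcc9 at 21.4 in the same library against 9.82 to 11.8, Gabra5 at 172 in mouse Fed-313 against 93.7 to 111.4, and Kcnmb4os2 at 3.65 in mouse Fed-127 against 0.159 to 0.622. Genes of PVN with a trace in 1 ARC library were Sim2, at 5.08 in mouse Fed-125 and listed at 0 in the others, Neurod1, at 2.05 in mouse Fed-127 against 0.159 to 0.422, Zic2, at 1.66 in mouse Fed-308 against 0 to 0.228, A730046J19Rik, at 0.456 in mouse Fed-127 and 0 in the others, and Crh, at 0.207 in mouse Fed-308 and 0 in the others. These 5 traces fell in 3 libraries.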

How the results depend on the processing

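The count of 1023 genes stayed within 1.5 times under 10 alternatives and each mouse left out, from 730 without mouse Fed-127 to 1200 with array weights, and the share higher in ARC lay between 43.2% and 47.1%. Without the variance trend it was 545 genes, 247 higher in ARC and 298 higher in PVN, of which 488 were shared with the 1023. Without the pairing of nuclei by mouse (no replicate block) it was 745, of which 742 were shared, and the fasted count was 497 against 753. With 1 mouse left out the fed count was 730 to 859, with 329 to 396 higher in ARC and 401 to 463 higher in PVN, and the fasted count was 350 to 874. The count of 0 genes for the fasting test held under every alternative run. Of the genes named above as called, 90 were called under all alternatives, including all 30 with the largest differences, and 20 of the other 21 were lost without the variance trend. Brs3 and Ndn, neither of them called, changed sign without mouse Fed-127. With 1 mouse left out Brs3 lay between -0.12 and 0.68 and Ndn between -0.02 and 0.17. A count test was planned only if whole reads could be recovered and was not run. At 2.37 to 7.26 M reads, 1 read was worth 0.138 to 0.422 CPM, so values near those are at the limit of detection.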
